A study of Mus musculus with 9 samples.

Results

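The genes of glutamate uptake and metabolism examined here were 9, of 55401 gene rows in the count table, and they were chosen by symbol: *Slc1a1*, *Slc1a2*, *Slc1a3* and *Slc1a4* (plasma membrane transporters), *Glul*, *Glud1*, *Got1* and *Got2* (enzymes), and *Slc38a3* (a glutamine transporter). Each symbol matched 1 row, and all 9 passed the filter on low counts. RNA-seq was performed on bulk forebrain of female mouse embryos at embryonic day 16 to 17 on the C57BL/6J background, either Npas3+/+ (WT; n = 5) or Npas3+/- with heterozygous, constitutive deletion of *Npas3* (HET; n = 4). WT embryos were littermates of the HET embryos. The deletion is carried by every cell of the HET embryo, so that the comparison is not restricted to astrocytes, although the deposited labels name astrocytes as the cell type. *Npas3* encodes a basic helix-loop-helix PAS transcription factor, and the comparison asks which transcripts differ when 1 copy of the gene is lost.

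Glutamate released at synapses is cleared mainly by astrocytes through sodium-driven transporters. Inside the astrocyte it is either amidated to glutamine by glutamine synthetase and exported to neurons, which turn it back into glutamate, or converted to α-ketoglutarate and oxidized in mitochondria. In the embryonic brain the same transporters and glutamine synthetase mark radial glia, the progenitors from which astrocytes later arise.

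*Slc38a3*, the gene of the glutamine transporter SNAT3, was lower with the deletion. HET forebrain had 14.8 ± 1.34 CPM (SD, n = 4), which are counts scaled to the library size of each embryo, against 26.4 ± 4.33 CPM in WT forebrain (SD, n = 5). By edgeR's quasi-likelihood test over 17818 genes it was the only one of the 9 with an adjusted p below 0.05. The 8 remaining members had log2 fold changes of HET over WT between −0.13 and 0.06. Outside these 9 genes, *Slc25a18*, which encodes the mitochondrial glutamate carrier GC2, and *Kcnj10*, which encodes the glial potassium channel Kir4.1, were also lower in HET forebrain among 37 tested genes of the wider glutamate and glutamine pathway.

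The targeted gene separated the genotypes only in part. *Npas3* was at 29.7 to 40.8 CPM in WT and at 27.8 to 34.1 CPM in HET embryos, with a log2 fold change of −0.30 (SE 0.10, adjusted p = 0.877 from edgeR), and the groups overlapped. Totals ranged from 42640218 to 62830060 counts an embryo. WT embryos 15, 16 and 41 and HET embryo 24 stood apart by *Ttr*, a gene of the choroid plexus, which was at 467 to 2631 CPM in these 4 embryos and at 0.770 to 11.7 CPM in the other 5. Of 5 markers of mature astrocytes, *Aldh1l1* was at 2.79 to 31.7 CPM, *Gfap* at 4.23 to 12.5 CPM, *Aqp4* at 0.163 to 2.02 CPM, *S100b* at 0.0883 to 0.326 CPM and *Gjb6* at 0 to 0.196 CPM, whereas 6 neuronal markers summed to 3974 to 4886 CPM. In such bulk samples fewer cells of a type and less RNA per cell cannot be told apart.

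The members differed widely in abundance. Levels of different genes were compared as CPM per kilobase of exon, because a longer transcript yields more reads. The length was that of all annotated exons of a gene merged, not of the transcripts present, so that the order depends on it. In CPM without the length *Slc1a3* was highest, at 285 in WT. In WT forebrain *Glul*, the gene of glutamine synthetase, was highest at 58.3 ± 3.26 CPM per kilobase (SD, n = 5), followed by *Glud1*, the gene of glutamate dehydrogenase, at 45.1 ± 2.37. *Slc1a4*, which encodes the neutral amino acid exchanger ASCT1, and *Slc1a3*, which encodes the astroglial glutamate transporter GLAST, had the same level within their spread, at 33.4 ± 0.965 and 33.4 ± 2.56 CPM per kilobase. Their WT ranges overlapped, and *Slc1a4* was the higher of the pair in 7 of the 9 embryos.

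The aspartate aminotransferases, which move amino groups between glutamate and oxaloacetate, came next. The cytosolic form *Got1* was at 20.1 ± 0.986 and the mitochondrial form *Got2* at 14.2 ± 1.07 CPM per kilobase (SD, n = 5). In CPM without the length their order was reversed, at 51.0 for *Got1* and 68.7 for *Got2* in WT. *Slc1a2*, which encodes GLT-1, the dominant glutamate transporter of the adult forebrain, was at 11.1 ± 3.17 CPM per kilobase and overlapped with *Got2*. *Slc38a3* and *Slc1a1*, the gene of the neuronal glutamate transporter EAAC1, were lowest, at 5.002 ± 0.821 and 4.91 ± 0.579 CPM per kilobase, and their WT ranges overlapped. In HET forebrain *Slc38a3* was at 2.80 ± 0.255 CPM per kilobase (SD, n = 4), below *Slc1a1* at 4.89 ± 0.830.

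**Figure D1:**
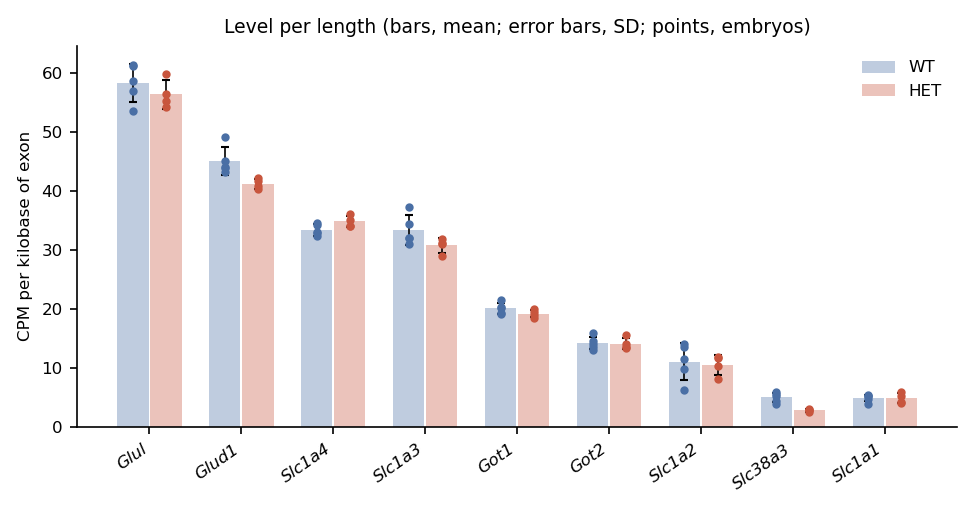
Level of the 9 genes in CPM per kilobase of exon in WT (blue, n = 5) and HET (red, n = 4) forebrain. Bars are means, error bars are SD and points are embryos. *Glul* leads at 58.3 in WT, and *Slc38a3* is the gene whose WT and HET points stand farthest apart relative to their height.

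*Slc1a3* (ENSMUSG00000005360) is a minus-strand gene of chromosome 15, between 8634124 and 8710764 (GRCm38). Its expression in WT embryos 5, 15, 16, 41 and 43 was 265, 294, 273, 319 and 274 CPM. In HET embryos 5, 6, 7 and 24 it was 265, 266, 272 and 247 CPM. The groups overlapped, and the highest value was that of WT embryo 41. The log2 fold change was −0.12 (SE 0.07, adjusted p = 0.911 from edgeR), with a 95% interval from −0.27 to 0.03. It was −0.01 among the 5 embryos with *Ttr* under 100 CPM.

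*Slc1a2* (ENSMUSG00000005089, chromosome 2 from 102658659 to 102790784) varied more between embryos than between genotypes. It was at 179, 185, 82.7, 151 and 129 CPM in WT embryos 5, 15, 16, 41 and 43. It was at 107, 155, 154 and 136 CPM in HET embryos 5, 6, 7 and 24. WT embryo 16 was the lowest of all and HET embryo 5 the next. The log2 fold change of −0.07 had a 95% interval from −0.53 to 0.38 (SE 0.21, adjusted p = 0.961 from edgeR). This interval was the widest of the 9 genes, so that a moderate change of *Slc1a2* in either direction was not detectable with these embryos.

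The ratio of *Slc1a3* to *Slc1a2*, taken per kilobase within an embryo, sets the GLAST transcript against that of GLT-1, whose balance shifts toward GLT-1 as the forebrain matures. The mean was 3.26 ± 1.11 for WT (SD, n = 5) and 2.99 ± 0.554 for HET (SD, n = 4). The lowest ratio was 2.28 in WT embryo 5 and the highest 5.08 in WT embryo 16, so that the HET values of 2.64 to 3.82 lay within the WT range. *Slc1a3* exceeded *Slc1a2* per kilobase in all 9 embryos.

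Of the members, *Slc38a3*, *Slc1a2* and *Slc1a1* had the largest SD of log2 CPM over the 9 embryos, and for each of these the genes with the most similar profile were sought among 10266 genes with a mean of at least 10 CPM. Similarity was the root mean square difference between log2 CPM values, each centred on its mean over the 9 embryos. For *Slc1a2* the closest gene was *Abat*, which encodes the GABA-degrading enzyme GABA transaminase, at 0.144 on the log2 scale. *E130008D07Rik* and *Gm16185* followed at 0.165 and 0.167. *Abat* was at 49.3 CPM in WT embryo 16, 55.2 CPM in HET embryo 5 and 61.8 CPM in WT embryo 43, its 3 lowest values, and at 67.0 to 93.3 CPM elsewhere.

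The genes of the GABA-synthesizing enzymes, *Gad1* and *Gad2*, which mark inhibitory neurons, had their lowest values in the same 3 embryos, an observation made after their values were seen. *Gad1* was at 33.4 CPM in HET embryo 5, 42.0 CPM in WT embryo 16 and 46.7 CPM in WT embryo 43, against 79.4 to 121 CPM in the other 6. *Gad2* was at 22.3 to 32.5 CPM in these 3 embryos and at 44.0 to 64.9 CPM in the others. *Slc1a2* also had its 3 lowest values there, whereas *Slc1a3* did not, with 265 to 274 CPM in the 3 embryos. The summed level of 5 oligodendrocyte lineage markers was likewise lowest in these 3 embryos, at 33.5 to 42.0 CPM, against 56.7 to 69.5 CPM in the others. The part of inhibitory neurons or of oligodendrocyte lineage cells in the level of *Slc1a2* was not tested.

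**Figure D2:**
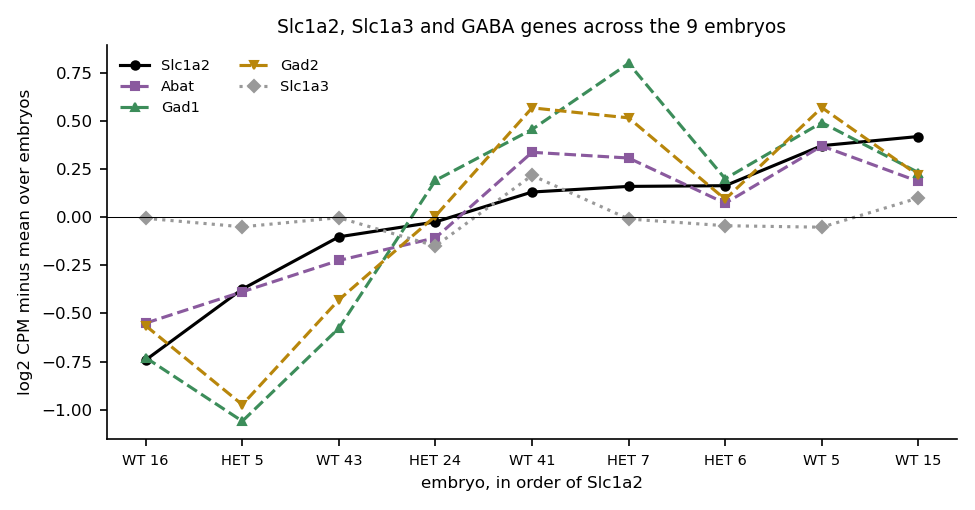
Log2 CPM minus its mean over the 9 embryos (vertical axis) for *Slc1a2*, *Slc1a3*, *Abat*, *Gad1* and *Gad2* in each embryo, ordered from left to right by *Slc1a2*. WT embryo 16, HET embryo 5 and WT embryo 43 hold the 3 lowest values of *Slc1a2*, *Abat*, *Gad1* and *Gad2*, and *Slc1a3* stays near 0 in these embryos.

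*Slc1a1* (ENSMUSG00000024935, chromosome 19, 28835049 to 28913960) had means of 40.6 ± 4.78 CPM (SD, n = 5) for WT and 40.4 ± 6.85 CPM (SD, n = 4) for HET. WT embryos 5, 15, 16, 41 and 43 had 32.5, 43.1, 39.8, 43.2 and 44.2 CPM, and HET embryos 5, 6, 7 and 24 had 33.97, 35.3, 44.0 and 48.2 CPM. WT embryo 5 was the lowest and HET embryo 24 the highest, and the groups overlapped between (log2 fold change −0.01, SE 0.12, adjusted p = 0.995 from edgeR). The antisense gene *4430402I18Rik* overlaps 31.9% of *Slc1a1* exonic sequence, and without the strand setting of the counting its values are uncertain. The count of *4430402I18Rik* itself reached at most 8.28% of that of *Slc1a1*. The genes closest to *Slc1a1* in profile were *Cux2*, a transcription factor gene of upper-layer cortical neurons, *Rph3a*, a synaptic vesicle gene, and *Spns2*, a sphingosine 1-phosphate transporter gene, at 0.0716, 0.0727 and 0.0739 on the log2 scale.

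*Slc1a4* (ENSMUSG00000020142, chromosome 11 from 20302180 to 20332713) was the steadiest of the 9 genes. WT embryos had 127 to 136 CPM with a median of 129, and HET embryos had 134 to 141 CPM. It was the single member with a positive log2 fold change, at 0.06 (SE 0.05, adjusted p = 0.911 from edgeR), and the groups overlapped.

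*Glul* (ENSMUSG00000026473, chromosome 1 from 153899944 to 153909723) was at 195, 189, 203, 204 and 178 CPM in WT embryos 5, 15, 16, 41 and 43. In HET embryos 5, 6, 7 and 24 it was at 183, 187, 199 and 180 CPM. WT embryo 43 was lowest and WT embryo 41 highest, with all HET embryos between them. The log2 fold change was −0.05 (SE 0.06, adjusted p = 0.933 from edgeR), with a 95% interval from −0.18 to 0.08. The sequence shared with the pseudogene *Glns-ps1* makes part of the *Glul* reads ambiguous, since 12.6% of its 50-base words also occur in other genes, although *Glns-ps1* had at most 7 counts in an embryo.

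*Glud1* (ENSMUSG00000021794, chromosome 14 from 34310727 to 34345265) encodes the mitochondrial enzyme that converts glutamate to α-ketoglutarate, the step that follows the import of glutamate by GC1 and GC2. WT embryos 5, 15, 16, 41 and 43 had 185, 185, 207, 190 and 182 CPM. HET embryos 5, 6, 7 and 24 had 177, 169, 176 and 172 CPM. The groups did not overlap, with a narrow gap between 177 and 182 CPM. The mean difference was small, a log2 fold change of −0.13 (SE 0.06, 95% interval −0.25 to −0.01), and the unadjusted p of 0.0403 became 0.911 after adjustment over all genes in edgeR. *Glud1* therefore did not pass the test. Without an adjustment, 5.42% of all tested genes had an edgeR p under 0.05. Among the embryos with *Ttr* under 100 CPM its log2 fold change was −0.08.

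*Got1* (ENSMUSG00000025190, chromosome 19, 43499752 to 43524605) averaged 51.0 ± 2.50 CPM over WT (SD, n = 5) and 48.8 ± 1.61 CPM over HET embryos (SD, n = 4). The WT values of 48.5 to 54.8 CPM overlapped with the HET values of 46.8 to 50.7 CPM (log2 fold change −0.06, SE 0.06, adjusted p = 0.912 from edgeR). *Got2* (ENSMUSG00000031672, chromosome 8, 95864134 to 95888547) averaged 68.7 ± 5.15 CPM (SD, n = 5) and 68.1 ± 4.72 CPM (SD, n = 4), with WT embryo 5 highest at 76.4 CPM and HET embryo 24 next at 74.8 CPM. Its log2 fold change was −0.01 (SE 0.07, adjusted p = 0.980 from edgeR). *Got2* shares 25.6% of its 50-base words with other genes, mostly its pseudogenes *Got2-ps1* and *Gm10874*, which had at most 3 counts in an embryo. The ratio of *Got2* to *Got1* per kilobase, mitochondrial against cytosolic form, was 0.652 to 0.783 in WT and 0.696 to 0.814 in HET embryos, and the groups overlapped. In CPM this ratio was 1.24 to 1.49 in WT and 1.32 to 1.55 in HET embryos.

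*Slc38a3* (ENSMUSG00000010064) is a minus-strand gene of chromosome 9, between 107650634 and 107669530. SNAT3 carries glutamine together with sodium and can run in both directions, and in the brain it is found on astrocytes, from which it releases glutamine. WT embryos 5, 15, 16, 41 and 43 had 20.4, 29.5, 27.4, 31.0 and 23.6 CPM. HET embryos 5, 6, 7 and 24 had 14.8, 13.2, 16.5 and 14.8 CPM. All 4 HET values lay below the lowest WT value and close to each other. The log2 fold change was −0.84 (SE 0.13, 95% interval −1.11 to −0.56), which is 0.560 of the WT level, with an adjusted p of 0.0310 from edgeR. DESeq2 gave −0.83 with an adjusted p of 2.07e-07. None of its exonic bases is covered by another gene, and it shares 0% of its 50-base words.

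**Figure D3:**
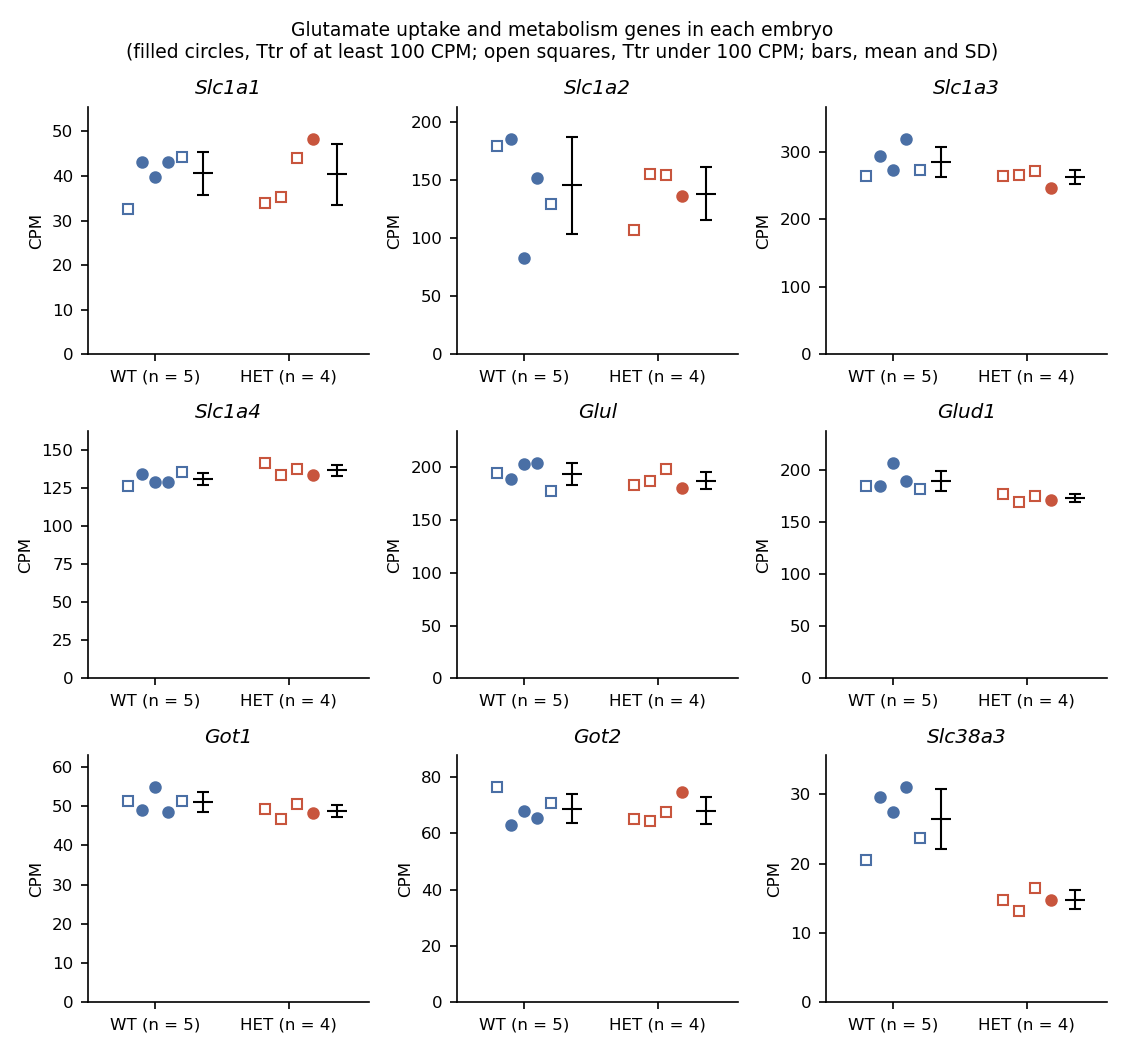
CPM of the 9 genes in each embryo, WT in blue (n = 5) and HET in red (n = 4), with the mean and SD beside the points. Filled circles are the 4 embryos with *Ttr* of at least 100 CPM and open squares the other 5. *Slc38a3* (bottom right) is separated by genotype, from 13.2 to 16.5 CPM in HET and from 20.4 to 31.0 CPM in WT, and *Glud1* by a narrow gap; the other 7 genes overlap.

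Of the 9 members, 1 was lower and 0 were higher in HET forebrain by edgeR (threshold 0.05, adjusted), whereas 0.112% of all tested genes were lower and 0.0281% were higher. The members were chosen with earlier results of these data known, so that these counts are no test of the group. At an unadjusted p under 0.05 the members were 2, *Slc38a3* and *Glud1*, and for both the groups did not overlap. Over all tested genes 1.85% did not overlap, 1.07% with HET below WT and 0.786% with HET above. DESeq2 called *Slc38a3* alone among the members and 0.483% of all tested genes, 0.348% as lower in HET. Of the 9 log2 fold changes 8 were below 0, as were 51.5% of those of all tested genes. The median was −0.06 for the members and −0.005 over all genes tested. The 95% interval of *Slc38a3* ended at −0.56, beyond the lowest limit of any other member, −0.53 for *Slc1a2*, but the difference between the genes was not tested itself.

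*Slc38a3* was highest in the WT embryos with much choroid plexus RNA. WT embryos 15, 16 and 41, with *Ttr* at 2127 to 2631 CPM, had 27.4 to 31.0 CPM of *Slc38a3*, and WT embryos 5 and 43, with *Ttr* at 0.770 and 2.14 CPM, had 20.4 and 23.6 CPM. HET embryo 24, with *Ttr* at 467 CPM, had 14.8 CPM of *Slc38a3*, within the 13.2 to 16.5 CPM of the other HET embryos. With a score of 8 choroid plexus genes as a covariate the log2 fold change was −0.69 (SE 0.09, adjusted p = 0.0143 from edgeR). When embryos with *Ttr* of 100 CPM or more were left out (leaving 2 WT and 3 HET), it was −0.57 (SE 0.14), and the adjusted p was 0.981 in edgeR. All 8 choroid plexus markers were tested and 0 passed in edgeR after adjustment. Of these, 7 were lower in HET forebrain, with log2 fold changes of −3.58 to −0.56, and *Prlr* was at 0.61. Unadjusted edgeR p-values of *Folr1*, *Kl*, *Clic6*, *Kcnj13* and *Sostdc1* were 0.0165 to 0.0487. The summed level of the 8 markers was 18.3 to 2841 CPM in WT and 27.8 to 526 CPM in HET embryos.

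The fall of *Slc38a3* kept its direction when any embryo was left out, with a log2 fold change between −0.91 and −0.77. Its adjusted p was 0.00636 without WT embryo 5 and between 0.0516 and 0.160 without any one of the other 8 embryos (edgeR), so that the call at 0.05 was lost in 8 of the 9 cases.

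In a list of 12 markers of astrocytes and radial glia, changes went in both directions. Log2 fold changes were below 0 for 5 of the 10 tested genes, as for 51.5% of all tested genes. *Aldoc*, *Sox9*, *Slc4a4* and *Atp1b2* were at 0.04 to 0.15, *Gja1* was at −0.01 and *Hes5* at −0.51. None of these genes passed in edgeR. *Hes5* was at 46.6 CPM in WT embryo 5, against 13.5 to 16.3 CPM in the other WT embryos and 13.0 to 15.6 CPM in HET embryos. The 12 genes of that list summed to 1068 to 1234 CPM in WT and 834 to 877 CPM in HET embryos. Of the 10 that were tested 1 was called, *Fabp7*, a fatty acid binding protein gene of radial glia. Without *Fabp7* the other 11 genes summed to 474 to 585 CPM in WT and 461 to 584 CPM in HET embryos and overlapped. The 5 mature astrocyte markers summed to 25.4 to 44.2 CPM in WT and 11.7 to 32.5 CPM in HET embryos, and 0 of the 3 that were tested passed in edgeR. The water channel gene *Aqp4* was at 1.17 to 2.02 CPM in WT and at 0.163 to 1.07 CPM in HET embryos (log2 fold change −1.63, adjusted p = 0.555 from edgeR). *Aldh1l1*, a folate enzyme gene, was at 15.3 to 31.7 CPM in WT and at 2.79 to 18.5 CPM in HET embryos and overlapped (log2 fold change −1.16, adjusted p = 0.904 from edgeR). *Gfap*, an intermediate filament gene, overlapped as well and had a log2 fold change of 0.08 (adjusted p = 0.969 from edgeR). The 5 endothelial markers summed to 97.2 to 128 CPM in WT and 95.7 to 111 CPM in HET embryos. Of these 3 were lower in HET forebrain, and 0 passed in edgeR. *Kdr*, *Tek* and *Pecam1* had log2 fold changes of −0.31, −0.24 and −0.21, with unadjusted edgeR p-values of 0.0197, 0.0907 and 0.0410. *Cldn5* and *Flt1* were both at 0.01. Like *Slc38a3*, the endothelial sum was higher in WT embryos 15, 16 and 41 than in WT embryos 5 and 43. So was the sum of 4 meningeal markers, at 28.1 to 37.1 against 9.72 and 9.27 CPM, with 16.1 to 18.4 CPM in HET embryos. The sums of microglial and red blood cell markers had the same order. All 4 meningeal and 4 mural markers were lower in HET forebrain, as were 2 of 6 microglial and 0 of 5 red blood cell markers. None of these passed in edgeR. The part of glial, endothelial, meningeal, mural or other cell number in the level of *Slc38a3* was not tested. *Fabp7* was also the gene with the profile most similar to *Slc38a3*, at a root mean square difference of 0.208 on the log2 scale over the 9 embryos. *Itgb5*, an integrin subunit gene, and *Adamts1*, a gene of an extracellular protease, followed at 0.208 and 0.214, and neither passed the test, with adjusted p of 0.555 and 0.289 from edgeR. The measure includes the difference between genotypes, so that genes that fall by a similar amount come out close. Within WT, *Fabp7* was highest in embryo 16, at 750 CPM, and *Slc38a3* in embryo 41, at 31.0 CPM.

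The other carriers of glutamine and of related amino acids at the plasma membrane were taken from a list of 8 genes, of which 7 were tested and 0 passed in edgeR's test, also 0 at an unadjusted p under 0.05 and 0 in DESeq2. *Slc38a1* and *Slc38a2*, which take glutamine up into neurons and other cells, had WT means of 336 ± 35.5 and 346 ± 40.7 CPM (SD, n = 5). Their HET means were 352 ± 13.2 and 335 ± 18.8 CPM (SD, n = 4), within the WT spread. *Slc38a5*, which encodes the close relative SNAT5, had a log2 fold change of −0.08 with a 95% interval from −0.26 to 0.11. The lowest unadjusted p of this group was that of *Slc7a11*, the gene of the cystine/glutamate exchanger xCT, at 0.0750, with a log2 fold change of −0.17 (SE 0.09, adjusted p = 0.911 from edgeR).

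Mitochondrial carriers and enzymes of the malate-aspartate shuttle were 7 genes, of which 1 was lower and 0 were higher. *Slc25a18* was at 3.01, 3.03, 3.35, 4.65 and 2.69 CPM in WT embryos 5, 15, 16, 41 and 43. HET embryos 5, 6, 7 and 24 had 0.779, 1.07, 1.14 and 1.32 CPM, all below the lowest WT value (log2 fold change −1.63, SE 0.21, adjusted p = 0.0107 from edgeR). The study chose this gene on the same samples, so that its fall here is not independent evidence. Separately, the study reported lower *Slc25a18* mRNA and GC2 protein in cultured Npas3+/- cortical astrocytes, with *Slc25a22* mRNA unchanged. It also reported lower GC2 protein in astrocytes isolated from mice with an astrocyte-specific deletion of *Npas3*. In the present samples the counts of *Slc25a18*, at 36 to 295 an embryo, were far below those of any of the 9 members. *Slc25a22*, which encodes GC1, averaged 70.3 ± 5.82 CPM over WT (SD, n = 5) and 75.6 ± 4.33 CPM over HET embryos (SD, n = 4), and the groups overlapped (log2 fold change 0.10, SE 0.07, adjusted p = 0.911 from edgeR). The aspartate/glutamate carriers *Slc25a12* and *Slc25a13*, the oxoglutarate carrier *Slc25a11* and the malate dehydrogenases *Mdh1* and *Mdh2* had log2 fold changes from −0.26 to −0.08, and none of these 5 passed.

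Of 12 genes of glutamate-linked enzymes 0 passed in edgeR and in DESeq2. *Prodh*, which encodes proline dehydrogenase and feeds proline into glutamate, had the lowest unadjusted p of the group at 0.0354, with 43 to 84 counts an embryo and a log2 fold change of −0.37 (SE 0.16, adjusted p = 0.909 from edgeR). It was the 1 gene of this group with an unadjusted p under 0.05.

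Vesicular glutamate carriers and GABA genes were 8, all tested, and 0 passed in edgeR and in DESeq2. Of these, *Gad1*, *Gad2* and *Abat*, described above by embryo, had log2 fold changes of 0.11, −0.15 and −0.07 with SE of 0.35, 0.30 and 0.19.

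Among 3 genes that work alongside glutamate uptake, *Kcnj10* was lower and the other two did not pass. Kir4.1 clears potassium from the extracellular space and keeps the astrocyte membrane negative, which drives glutamate uptake. *Kcnj10* was at 62.8, 47.7, 43.3, 54.3 and 67.9 CPM in WT embryos 5, 15, 16, 41 and 43. HET embryo 24 had 17.4 CPM and the other 3 HET embryos 27.3 CPM each. The groups were far apart, with a log2 fold change of −1.15 (SE 0.17, adjusted p = 0.0229 from edgeR). Unlike *Slc38a3* it was highest in the WT embryos with low *Ttr*, and among the embryos with *Ttr* under 100 CPM its log2 fold change was −1.26 (SE 0.08, adjusted p = 0.00518 from edgeR).

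Over the 37 tested pathway genes outside the 9 members, 2 were lower and 0 were higher by edgeR at the same threshold, against 0.112% and 0.0281% of all genes tested. The list was drawn up with earlier results of these data known and includes *Slc25a18*, so that these counts are no test of the pathway. Their median log2 fold change was −0.02, with 20 values below 0 and 17 above. With 1 embryo left out in turn, *Slc25a18* kept its call in 8 of 9 cases and *Kcnj10* in 3. Without HET embryo 6 neither was called, at log2 fold changes of −1.62 and −1.20 and adjusted p of 0.0646 for *Slc25a18* and 0.0943 for *Kcnj10* (edgeR). *Slc25a18* also lost its call among the embryos with *Ttr* under 100 CPM, at a log2 fold change of −1.51 and an adjusted p of 0.236 (edgeR). The call of *Kcnj10* was also lost without WT embryo 5, 41 or 43 or HET embryo 5 or 7, at log2 fold changes of −1.20 to −1.06 and adjusted p of 0.0516 to 0.0757 (edgeR).

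**Figure D4:**
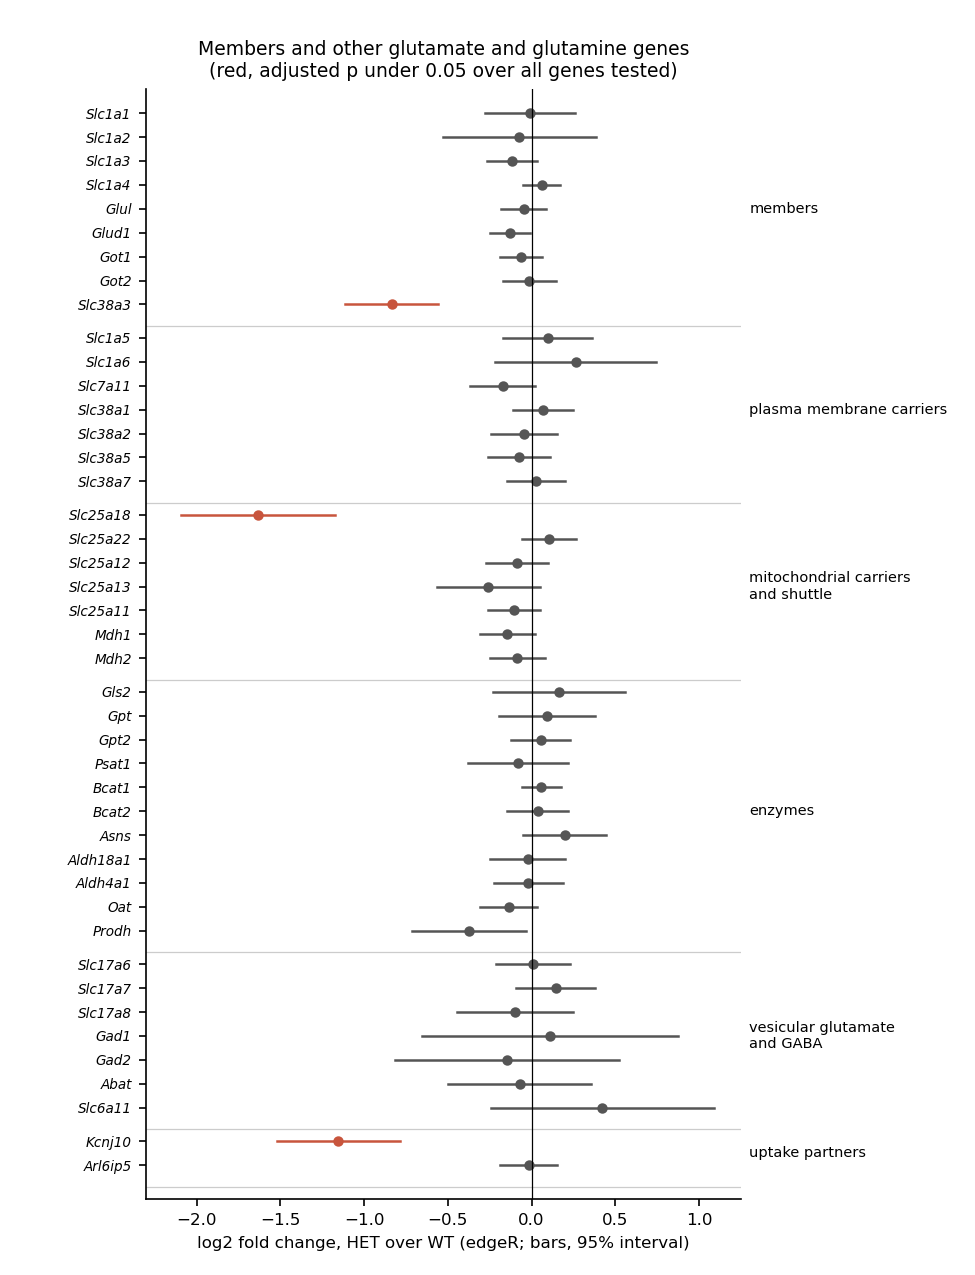
Log2 fold change of HET over WT with its 95% interval for the 9 members (top block) and 34 of the tested genes of the 5 pathway groups, from edgeR. Red marks the 3 genes with an adjusted p under 0.05, *Slc38a3* at −0.84, *Slc25a18* at −1.63 and *Kcnj10* at −1.15, and the other genes lie between −0.37 and 0.42.

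**Figure D5:**
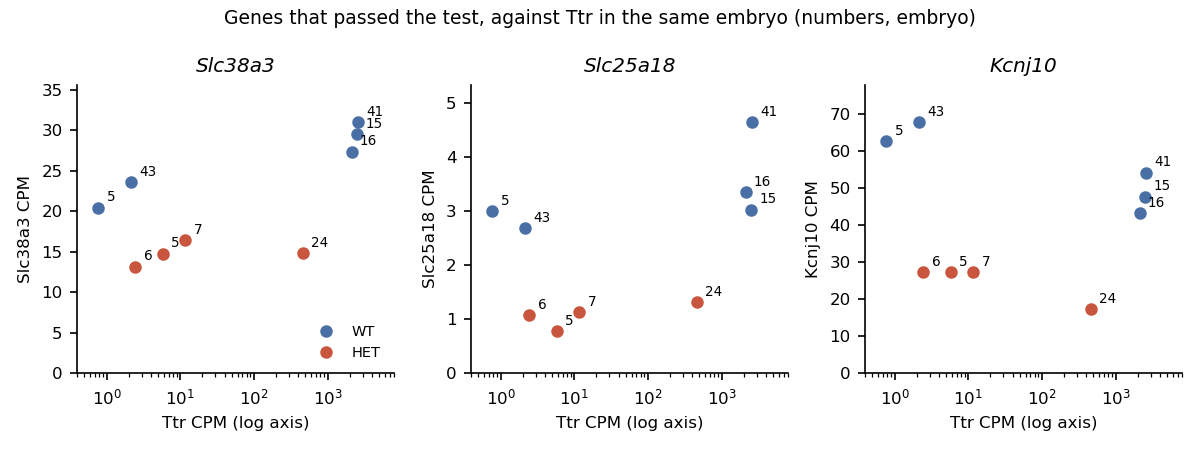
CPM of *Slc38a3*, *Slc25a18* and *Kcnj10* (vertical axes) against CPM of *Ttr* in the same embryo (horizontal log axis), with embryo numbers, WT in blue (n = 5) and HET in red (n = 4). All HET points are below all WT points in each panel, and *Slc38a3* is higher in WT embryos 15, 16 and 41 with *Ttr* of 2127 to 2631 CPM than in WT embryos 5 and 43.

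To choose candidates, the study filtered its differing genes for an E-box in the promoter. It also required expression mainly in astrocytes and a role in mitochondria or energy metabolism. An E-box is the letters CANNTG, to which basic helix-loop-helix proteins bind. The 250 bases before the RefSeq start were searched on GRCm38.p6, where the motif reads the same on both strands. Of the 9 members 8 had such a window, the exception being *Slc38a3*, and 5 of the 8 held at least 1 E-box, against 66.2% of all 32851 windows. *Slc1a3*, which did not pass the test, held 1, *Slc25a18* held 3 and *Kcnj10* held 0. These 3 are shown because they pair the most abundant glutamate transporter with both pathway genes that fell. E-boxes are in capitals, each sequence is on the strand of its gene, and bases that GENCODE places in an exon are left out, which for *Slc25a18* leaves the first 60 bases with 2 of its 3 E-boxes. The windows are chr15:8710808-8711057 (minus strand), chr6:120773518-120773577 (plus strand) and chr1:172340960-172341209 (plus strand).
Slc1a3: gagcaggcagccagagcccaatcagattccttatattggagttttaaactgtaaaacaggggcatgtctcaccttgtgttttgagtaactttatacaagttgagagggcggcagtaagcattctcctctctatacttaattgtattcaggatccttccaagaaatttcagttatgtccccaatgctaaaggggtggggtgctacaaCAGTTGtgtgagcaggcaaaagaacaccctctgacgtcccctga
Slc25a18: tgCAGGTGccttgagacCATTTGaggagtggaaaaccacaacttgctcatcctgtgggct
Kcnj10: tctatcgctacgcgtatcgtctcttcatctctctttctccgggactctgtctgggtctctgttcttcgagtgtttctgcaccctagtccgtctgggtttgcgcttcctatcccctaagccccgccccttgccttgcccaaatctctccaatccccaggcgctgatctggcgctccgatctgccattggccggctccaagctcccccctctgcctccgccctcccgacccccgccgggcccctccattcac
A match of these letters is a description of the sequence and says nothing of binding.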

How the data were processed

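Total RNA of bulk forebrain was captured by poly(A), made into TruSeq libraries and sequenced on an Illumina HiSeq instrument, and the authors used 1 read of each pair. They aligned reads to GRCm38.p6 with STAR 2.7.9a and counted them per gene with featureCounts (Subread 2.0.0) against GENCODE release M25. Values as deposited are raw counts of reads per gene for 55401 genes and 9 embryos. How strand and multiply aligned reads were treated is not given in the sources used here, which matters for genes with antisense partners or pseudogenes.

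Genes were filtered with filterByExpr (minimum count 10), which left 17818, scaled by TMM, and compared between HET and WT with the quasi-likelihood test of edgeR 4.0.16 in R 4.3.3, over all 9 embryos without covariates. Adjustment over all tested genes followed Benjamini and Hochberg, with 0.05 as threshold. The p-values reflect the spread between these embryos, which edgeR estimates for each gene partly from the other genes. SE is the log2 fold change divided by the root of F, and 95% intervals use it. Levels per kilobase use the merged length of all exons of a gene in GENCODE release M21, also on GRCm38, which lists 55141 of the identifiers. Alternatives were DESeq2 1.42.0 and limma 3.58.1 (voom) on the same genes, DESeq2 size factors, upper-quartile scaling, a minimum count of 50, no filter, a choroid plexus score as covariate, embryos with Ttr under 100 CPM, and leaving out each embryo. The fit was tested on simulated counts.

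The median total count was 45845845. PCR duplicates cannot be told from molecules, so depth covers counting error only. The members and lists were chosen with earlier results of these data known. Genes named were the 9 members, Npas3, Slc25a18, Slc25a22, Ttr, each pathway gene past the threshold, the lowest unadjusted p of each pathway group, and the 3 most similar genes (mean of at least 10 CPM) of the 3 most variable members. Gad1, Gad2, single genes of the marker lists and the other pathway genes given with values were added after their values were seen. Some genes that this rule names are not reported here.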

Additional observations from a re-analysis of the deposited data

Results flagged for a closer look

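Of 38 groups of embryos, 2 held an extreme embryo past the 95% limit of Dixon's test, about as many as the 1 in 20 that chance gives. *Kcnj10* in HET embryo 24 was at 17.4 CPM, against 27.3 CPM in each of the other 3 HET embryos. The ratio of *Slc1a3* to *Slc1a2* per kilobase in HET embryo 5 was 3.82, against 2.64 to 2.80 in the other HET embryos.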

How the results depend on the processing

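No paired analysis was possible because the labels of the WT and HET embryos share a single number, 5, which names an embryo. All log2 fold changes of *Slc38a3*, *Slc25a18* and *Kcnj10* were negative under every alternative, as were those of *Slc1a3*, *Glud1* and *Got1*, and *Slc1a4* was positive in each. In the main test 5 genes were higher and 20 lower in HET, with 1 member and 2 pathway genes called. DESeq2 called 24 higher and 62 lower genes and the choroid plexus covariate 2 higher genes. Among embryos with *Ttr* under 100 CPM there were 3 higher and 12 lower genes, 0 members and 1 pathway gene, with fewer samples. Leaving out 1 embryo gave 0 to 5 higher genes, 13 to 20 lower genes (13 without HET embryo 6), 0 to 1 member and 0 to 2 pathway genes.

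Values near 0 changed sign. *Slc1a1* reached 0.0694 with the choroid plexus covariate and lay between −0.10 and 0.0668 with 1 embryo left out. Over the same fits *Slc1a2* lay between −0.22 and 0.0305 and *Got2* between −0.0616 and 0.0279. Among embryos with *Ttr* under 100 CPM, *Glul* was at 0.0296 and *Slc25a22* at −0.00997, and the HET minus WT difference of the *Got2* to *Got1* ratio was −0.0453 in place of 0.0253. For the *Slc1a3* to *Slc1a2* ratio this difference, −0.269, turned to 0.286 in these embryos and to 0.185 without WT embryo 16, shifts smaller than the WT SD of 1.11. The cause of these shifts was not tested.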
